A study of Schizosaccharomyces pombe with 8 samples.

Results

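The genes described here encode 8 enzymes that build, remodel or cut the polysaccharides of the fission yeast cell wall. They were taken by name and identifier, with earlier results of these data known, and all 8 of the 5165 genes in the table were found and passed the filter on low values. They are bgs1 (SPBC19G7.05c), bgs4 (SPCC1840.02c), ags1 (SPCC1281.01), gas1 (SPAC19B12.02c), psu1 (SPAC1002.13c), bgl2 (SPAC26H5.08c), exg1 (SPBC1105.05) and cts2 (SPAPB1E7.04c). Poly(A) RNA of Schizosaccharomyces pombe was sequenced in 4 groups of 2 libraries. The groups were wild type (strain 972) and a strain lacking pgr1, the gene of glutathione reductase, each either untreated or exposed to 1 mM hydrogen peroxide (H2O2) for 30 min. All cells grew in YE5S, a rich medium, at 30 °C, and a single deletion strain stands for the loss of pgr1. Whether the 2 libraries within a group are separate cultures is not stated in the labels, so p-values cover the spread between libraries only, and that spread may be technical.

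The wall of a fission yeast cell is a layered mesh of branched and linear beta-glucan and alpha-glucan, with galactomannoprotein on its surface. Glucan synthases in the plasma membrane extrude new chains at the growing tips and at the division septum. Transglycosylases outside the membrane lengthen and join the chains, and glucanases open the mesh for growth and dissolve the septum edge so that daughter cells part. In S. pombe the septum-cutting enzymes are made in a burst around cell division.

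Levels are the authors' DESeq2-normalized counts, that is, read counts divided by a size factor of each library. The reads recovered from these values numbered 12026222 in the smallest library and 14125543 in the largest. Fold changes are on the scale of log2(value + 1) and are given with the standard error from limma, fitted to all 8 libraries over 5028 genes. A gene is said to have risen or fallen when its Benjamini-Hochberg adjusted p over all these genes was below 0.05. The pgr1 transcript was between 4805.1 and 7201.1 in the wild-type libraries and between 91.4 and 159.1 in the mutant libraries, which matches the labels. None of the 8 genes shared more than 0.48% of its 31-base stretches with another gene, and at most 0.95% of the exons of any of them, those of bgs1, lay opposite another coding gene.

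H2O2 lowered all 8 transcripts in wild type. Of all tested genes 34.6% fell in this comparison, and 11.8% fell at least 2-fold, against 4 of these 8. The median log2 fold change of the 8 genes was -1.37, beside a median of 0.00 over all tested genes. The falls ranged from 20.5-fold for gas1 to 1.44-fold for bgl2, as ratios of group means. Summed over the 8 genes, normalized counts went from between 54694.6 and 62783.3 in the untreated wild-type libraries to between 13153.8 and 13335.0 after H2O2.

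**Figure D1:**
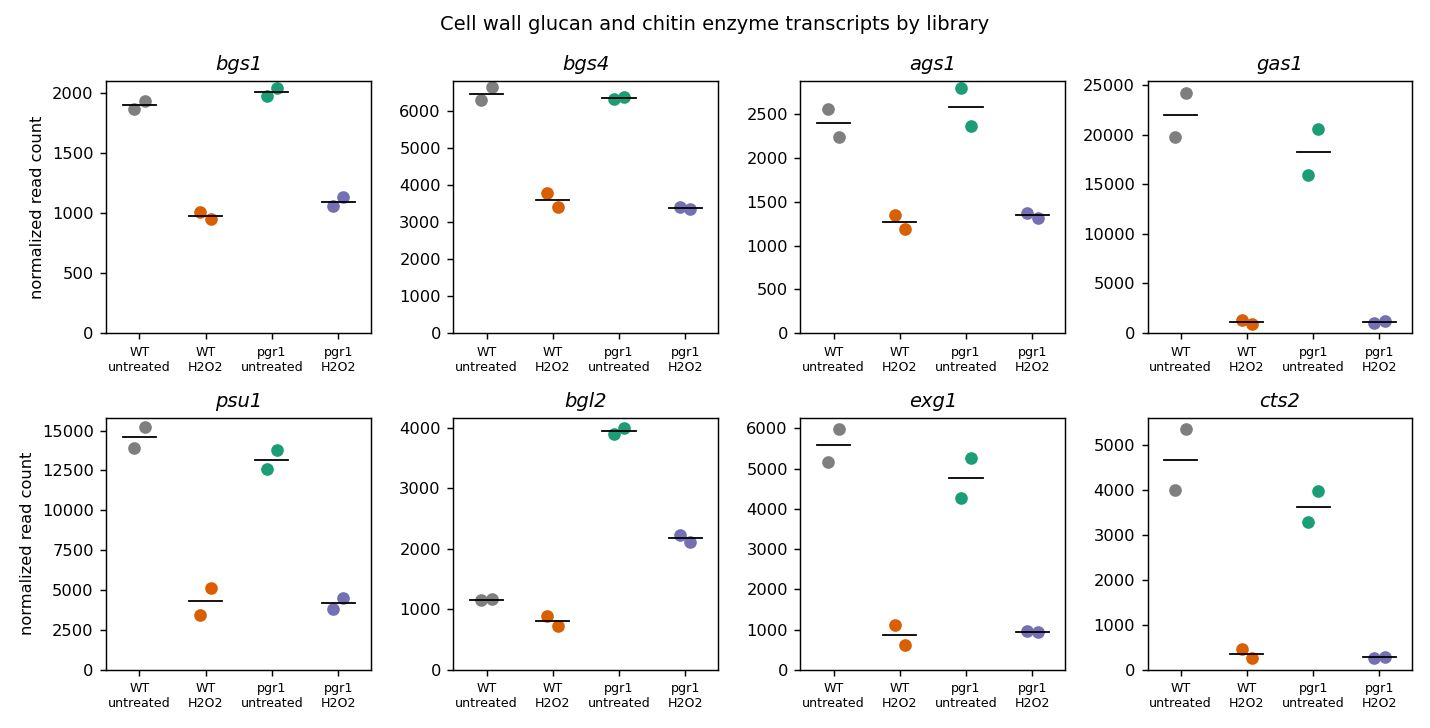
Normalized read counts (vertical axis, starting at 0) of the 8 genes in each library. Points are single libraries, 2 per group, and black lines are group means; the treated libraries lie below the untreated ones of the same strain in every panel, and bgl2 alone is clearly higher in both mutant groups.

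The 3 synthases lost close to the same share of their transcript. For bgs1, whose product makes the linear beta-glucan of the primary septum, the untreated wild-type libraries held 1873.5 and 1939.0 normalized counts and the treated ones 1011.7 and 948.2, a log2 fold change of -0.96 ± 0.07 (limma, adjusted p = 2.39e-06). For bgs4, the synthase of branched beta-glucan in the wall and secondary septum, the counts were 6281.6 and 6631.1 untreated and 3783.2 and 3393.5 treated, a change of -0.85 ± 0.07 (limma, adjusted p = 5.58e-06). The alpha-glucan synthase gene ags1 had 2555.5 and 2244.4 untreated and 1352.8 and 1190.5 treated, a change of -0.92 ± 0.10 (limma, adjusted p = 4.12e-05). In each case both treated libraries lay below both untreated ones, and the treated means were 51.4%, 55.6% and 53.0% of the untreated means of bgs1, bgs4 and ags1.

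The deepest fall was that of gas1, whose product is a transglycosylase that elongates beta-1,3-glucan chains. From 19754.3 and 24238.1 in the untreated wild-type libraries it went to 1271.9 and 871.3 after H2O2, so that 4.87% of the mean level was left. The log2 fold change was -4.38 ± 0.19 (limma, adjusted p = 9.01e-08), with a 95% interval from -4.81 to -3.94. Counting gas1 itself, 3 of the 5028 tested genes (0.0597%) had a change this low or lower in wild type.

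Among the enzymes that cut wall polymers the falls were uneven. The chitinase gene cts2 went from 3992.2 and 5353.0 in the untreated libraries to 463.7 and 257.1 after H2O2, a change of -3.74 ± 0.25 (limma, adjusted p = 1.14e-06). For exg1, which encodes a secreted beta-1,6-glucosidase, 5156.6 and 5997.5 untreated stood against 1111.2 and 623.7 treated, a change of -2.74 ± 0.23 (limma, adjusted p = 5.01e-06). In both genes the first treated library was the higher one, by more than the 2 untreated libraries differed in relative terms, but treated and untreated values were far apart. The SUN-family gene psu1, annotated as a beta-glucosidase, had 13930.6 and 15214.9 untreated and 3457.2 and 5143.5 treated, a change of -1.79 ± 0.17 (limma, adjusted p = 1.11e-05). The smallest fall was that of bgl2, a glucan beta-glucosidase gene, from 1150.4 and 1165.1 to 883.4 and 725.9, a change of -0.53 ± 0.09 (limma, adjusted p = 0.000655). Its 95% interval of -0.74 to -0.32 does not meet that of any of gas1, cts2, exg1, psu1 or bgs1.

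The same treatment of the pgr1 mutant also lowered all 8 transcripts, where 32.5% of all tested genes fell and 7.90% fell at least 2-fold, against 4 of these 8. The 8 genes had a median log2 fold change of -1.30, beside 0.01 over all tested genes. For gas1 the mutant counts were 15961.9 and 20549.3 untreated and 1015.8 and 1213.8 after H2O2, a change of -4.03 ± 0.19 (limma, adjusted p = 3.79e-07). The cts2 counts were 3278.5 and 3973.4 untreated and 271.4 and 287.0 treated (-3.69 ± 0.25; limma, adjusted p = 2.37e-06). The treated mean was 6.11% of the untreated mean for gas1 and 7.70% for cts2. The counts of exg1 were 4279.0 and 5265.2 untreated and 952.2 and 931.3 treated (-2.33 ± 0.23; limma, adjusted p = 2.18e-05). Those of psu1 were 12597.1 and 13764.3 untreated and 3811.3 and 4496.6 treated (-1.67 ± 0.17; limma, adjusted p = 2.6e-05). The 3 synthases again lay close together, with bgs1 at -0.88 ± 0.07, bgs4 at -0.91 ± 0.07 and ags1 at -0.93 ± 0.10 (limma, adjusted p from 5.76e-06 to 5.14e-05). For bgl2 the change was -0.86 ± 0.09 (limma, adjusted p = 3.94e-05), from 3904.2 and 4005.2 to 2233.3 and 2113.8. Treated and untreated libraries of the mutant did not overlap for any of the 8 genes. How many of all tested genes separate 2 libraries from 2 in this way was not counted in either strain.

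**Figure D2:**
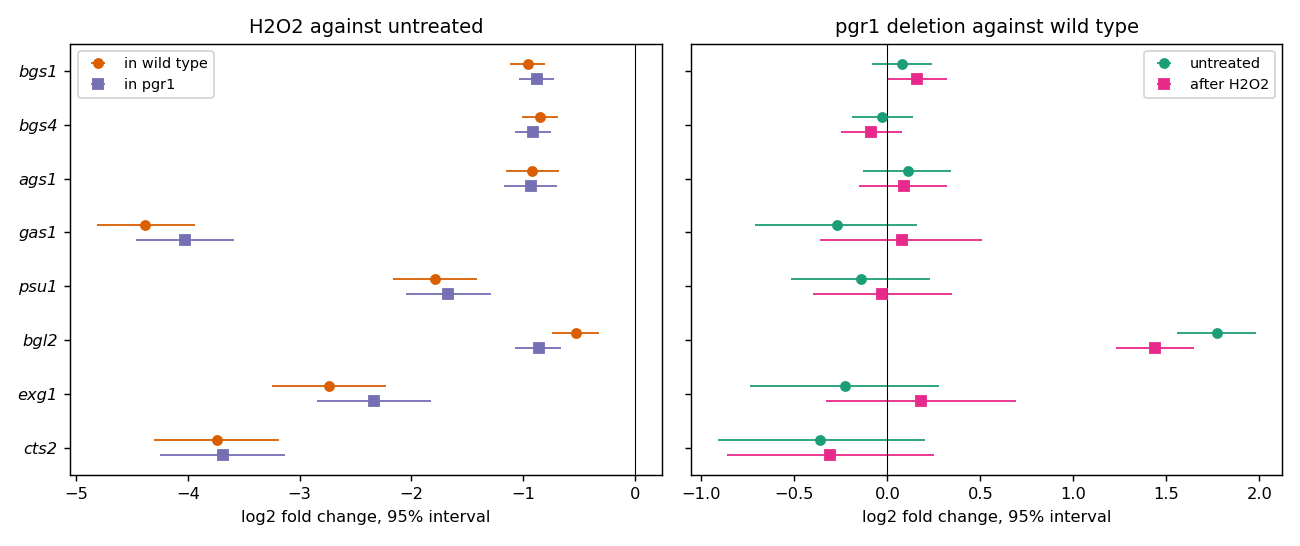
Log2 fold changes of the 8 genes with 95% intervals from limma (n = 2 libraries per group), for H2O2 against untreated in each strain (left) and for the deletion against wild type in each condition (right). All 16 intervals on the left lie below 0, and on the right bgl2 is the gene whose intervals lie well above 0, at 1.77 untreated and 1.44 after H2O2.

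The difference between the strains' H2O2 responses was tested directly and none of the 8 genes passed, while 27.3% of all tested genes did. The difference, mutant response minus wild-type response on the log2 scale, was 0.35 for gas1 (95% interval -0.26 to 0.96), 0.05 for cts2 (-0.74 to 0.84), 0.41 for exg1 (-0.32 to 1.13) and 0.12 for psu1 (-0.41 to 0.65). It was 0.08 for bgs1 (-0.14 to 0.31), -0.06 for bgs4 (-0.29 to 0.17) and -0.02 for ags1 (-0.35 to 0.31). The intervals of the 3 synthases leave room for small differences only, those of gas1, cts2 and exg1 for larger ones. For bgl2 the difference was -0.33 (-0.63 to -0.04), with an adjusted p of 0.0921 by limma. It was the 1 gene of the 8 with an unadjusted p below 0.05, and edgeR and DESeq2 on the recovered reads called 0 of the 8. Under quantile normalization bgl2 did pass, at -0.66 (limma, adjusted p = 0.0072). Without the second treated wild-type library bgl2 passed at -0.47 (limma, adjusted p = 0.012), and without the first exg1 passed at 0.82 (limma, adjusted p = 0.0131).

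The loss of pgr1 by itself changed 1 of the 8 transcripts. In untreated cells bgl2 rose from 1150.4 and 1165.1 in wild type to 3904.2 and 4005.2 in the mutant, 3.42-fold, a log2 fold change of 1.77 ± 0.09 (limma, adjusted p = 1.12e-06). In this comparison 1937 of the 5028 tested genes passed in either direction. Of all tested genes 22.8% rose and 5.63% rose at least 2-fold. The other 7 genes did not pass, with log2 fold changes from -0.36 for cts2 (95% interval -0.91 to 0.20) to 0.11 for ags1 (-0.13 to 0.34). For gas1 the difference was -0.27 (-0.71 to 0.16), for exg1 -0.23 (-0.74 to 0.28) and for psu1 -0.14 (-0.52 to 0.23). The synthase genes bgs1 and bgs4 were at 0.08 (-0.08 to 0.24) and -0.03 (-0.19 to 0.14).

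After H2O2 bgl2 was again the 1 gene called between the strains. Its counts of 2233.3 and 2113.8 in the treated mutant stood against 883.4 and 725.9 in treated wild type, 2.70-fold higher, a change of 1.44 ± 0.09 (limma, adjusted p = 4.9e-06), where 26.5% of all tested genes rose and 5.33% rose at least 2-fold. The treated mutant still held more bgl2 transcript than untreated wild type. Among the others, bgs1 was at 0.16 (95% interval 0.00 to 0.32; limma, adjusted p = 0.088), cts2 at -0.31 (-0.86 to 0.25) and gas1 at 0.08 (-0.36 to 0.51). The comparison rests on treated wild-type libraries that differed for exg1 and cts2: without the first, exg1 passed at 0.59 (limma, adjusted p = 0.0114), and without the second, cts2 passed at -0.73 (limma, adjusted p = 0.0146).

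Scaled by the length of the coding sequence in the ASM294v3 annotation, gas1 and psu1 led in untreated wild type with 13502.9 ± 1946.3 and 11621.0 ± 724.2 normalized counts per kb (mean ± SD, n = 2), and their libraries overlapped. They were followed by exg1 at 4556.4 ± 485.8, and by cts2 (1259.1), bgl2 (1198.5) and bgs4 (1100.3), of which cts2 overlapped both of the others. The primary septum synthase bgs1 (367.3) and the alpha-glucan synthase ags1 (331.8) came last and did not overlap. After H2O2 in wild type psu1 was first at 3429.3 ± 950.9 per kb, and bgl2 (833.0), exg1 (708.7), gas1 (657.8) and bgs4 (611.5) formed a run of overlapping levels. The chitinase gene cts2 dropped to the last place at 97.1, below bgs1 (188.8) and ags1 (175.8), which overlapped.

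In the untreated mutant gas1 (11206.6) and psu1 (10510.9) again overlapped at the top, and bgl2 came next at 4093.9 ± 74.0 per kb, overlapping exg1 (3898.8). Further down bgs4 (1080.7) and cts2 (977.1) did not overlap, and bgs1 (387.9) and ags1 (357.6) did. In the treated mutant no neighbours in the order overlapped, and it ran psu1 (3312.6), bgl2 (2250.0), exg1 (769.4), gas1 (684.3), bgs4 (575.6), bgs1 (211.3), ags1 (186.4) and cts2 (75.2).

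**Figure D3:**
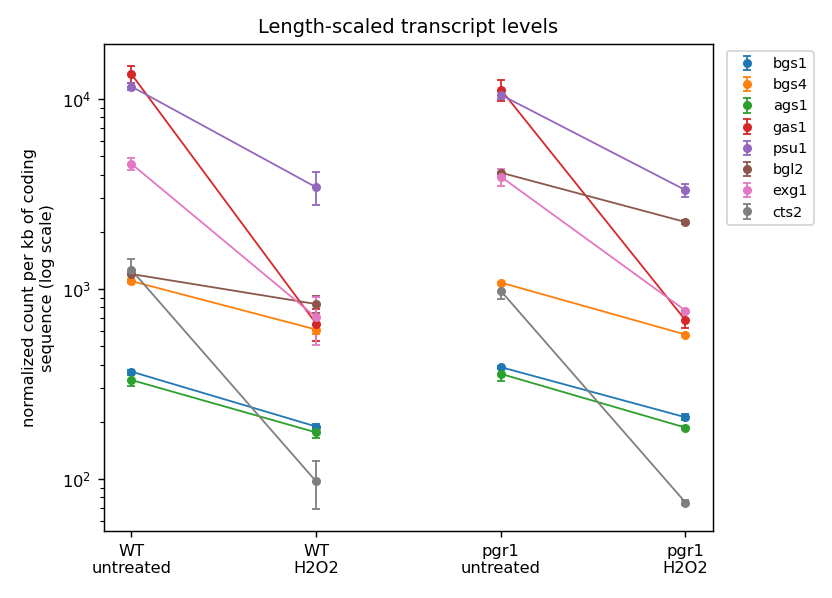
Normalized counts per kb of coding sequence (log scale) of the 8 genes in the 4 groups. Points are means, bars span the 2 libraries, and lines join the untreated and treated groups of a strain; the steep lines are those of gas1 and cts2, and bgl2 sits higher in the mutant than in wild type.

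The wider set of 24 genes of glucan synthesis, transglycosylation and hydrolysis, which includes the 8, showed that the falls were not shared by every relative. In wild type 16 of the 24 fell with H2O2, 4 rose and 4 did not pass, where 34.6% of all tested genes fell and 37.7% rose. In the mutant 15 fell, 3 rose and 6 did not pass, where 32.5% of all tested genes fell and 35.7% rose. Of the 16 genes outside the 8, 8 fell and 4 rose in wild type, with a median of -0.32, and 7 fell and 3 rose in the mutant, with a median of -0.11. All 4 beta-glucan synthase genes fell in wild type, where bgs3 was at -1.21 ± 0.09 (limma, adjusted p = 1.98e-06) and bgs2, the spore wall synthase, at -0.46 ± 0.08 (limma, adjusted p = 0.000782). In the mutant bgs3 fell by 0.84 on the log2 scale, and bgs2 was at -0.02 and did not pass (limma, adjusted p = 0.863).

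Of the 5 alpha-glucan synthase genes, ags1 and mok11 (-1.01 ± 0.09) fell in wild type, and ags1 and mok12 (-0.52 ± 0.17) fell in the mutant. The call of mok12 was lost under quantile normalization, at -0.31 (limma, adjusted p = 0.117), and without the first untreated or either treated mutant library. The value of mok11 is uncertain, because another gene holds 6.08% of its 31-base stretches. The genes mok13 and mok14 did not pass in either strain, with values between -0.04 and 0.25. Quantile normalization did call mok14 in wild type, at 0.35 (limma, adjusted p = 0.0401). So did a replicate block, at 0.25 (limma, adjusted p = 0.0469).

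The Gas-family genes went in opposite directions. In wild type gas5, like gas1, fell, with a change of -2.31 ± 0.19 (limma, adjusted p = 5.28e-06), from 2808.5 and 4000.2 to 758.5 and 599.5, and gas2 rose by 1.68 ± 0.07 (limma, adjusted p = 9.12e-08), from 8864.2 and 8706.9 to 28000.9 and 28263.1. Both values are uncertain, since 82.4% of the exons of gas5 and 85.1% of those of gas2 lie opposite another coding gene and neither the labels nor the files state the strand setting of the counting. The meiotic gene gas4 rose by 0.24 ± 0.08 (limma, adjusted p = 0.0253), a call lost by DESeq2 (adjusted p = 0.0572), in a fit of the compared groups alone, and without the second untreated or second treated wild-type library. In the mutant gas5 was at -1.61 ± 0.19 and gas2 rose by 0.30 ± 0.07 (limma, adjusted p = 0.00585) under the deposited scaling, while gas2 was at -0.07 under quantile normalization.

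Among the 11 genes of glucanases, the SUN family and chitinase, 8 fell and 2 rose in wild type, and 8 fell and 1 rose in the mutant. Of all tested genes 34.6% fell and 37.7% rose in wild type, and 32.5% fell and 35.7% rose in the mutant. The endo-beta-1,3-glucanase gene eng1, whose product cuts the primary septum, went from 4535.0 and 6508.1 to 378.1 and 295.0 in wild type (-4.02 ± 0.20; limma, adjusted p = 2.04e-07). The alpha-glucanase gene agn1, which acts with eng1 in cell separation, fell in wild type from 2161.6 and 2875.2 to 635.9 and 605.8 (limma, adjusted p = 1.79e-06) and was at -2.37 ± 0.14 in the mutant (limma, adjusted p = 1.26e-06). One of the 2 that rose in wild type was exg3, a relative of exg1, from 641.7 and 659.1 to 4516.3 and 4326.0 (2.76 ± 0.06, limma, adjusted p = 2.84e-09). The other was the endo-beta-1,3-glucanase gene eng2, from 1392.9 and 1353.8 to 1786.4 and 2096.6 (0.49 ± 0.08; limma, adjusted p = 0.000615). In the mutant exg3 rose from 1651.4 and 1733.5 to 5493.3 and 5270.5 (1.67 ± 0.06; limma, adjusted p = 1.2e-07). Without treatment it was 1.38 ± 0.06 higher in the mutant (limma, adjusted p = 5.49e-07), and thus exg3 and bgl2 were both raised by the deletion alone but moved in opposite directions with H2O2. The SUN-family relative psu2 was rare in wild type, with normalized counts of 13.1 and 11.9 before treatment and 1.2 and 0.0 after it.

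**Figure D4:**
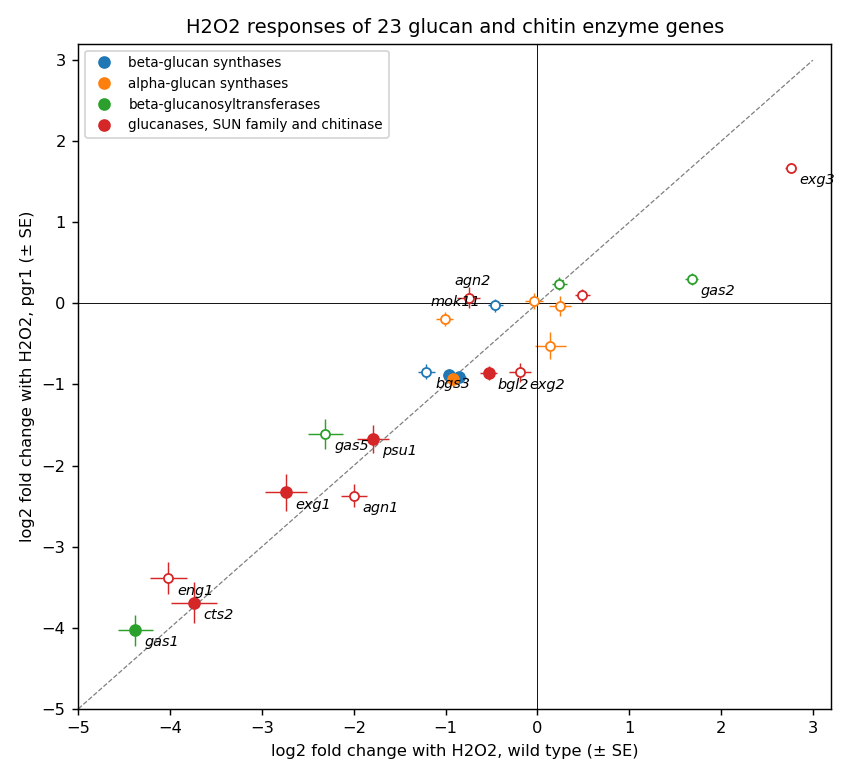
Log2 fold change with H2O2 in wild type (horizontal) and in the pgr1 mutant (vertical), each ± SE, for 23 genes of glucan synthesis, transglycosylation and hydrolysis; psu2 is left out for its low counts. Filled points are the 8 genes described, open points their relatives, and the dashed line marks equal responses; gas1 and cts2 lie at the lower left and exg3 at the upper right.

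Among 11 genes of chitin synthesis and of sugar precursors of the wall, 6 fell and 5 rose in wild type, and 5 fell and 5 rose in the mutant. For these and the lists that follow, 34.6% of all tested genes fell and 37.7% rose in wild type. In the mutant the shares of all tested genes were 32.5% and 35.7%. The chitin synthase-like gene chs2 was at -2.16 ± 0.19 in wild type (limma, adjusted p = 7.42e-06) and at -1.75 ± 0.19 in the mutant (limma, adjusted p = 4.34e-05). In wild type fyu1, which makes the UDP-glucose from which glucan is built, rose by 2.18 ± 0.09 (limma, adjusted p = 5.87e-08), and a chitin synthase regulatory factor gene, cfh2, by 2.18 ± 0.11 (limma, adjusted p = 1.92e-07). The value of fyu1 is uncertain, because another gene holds 10.31% of its 31-base stretches. Of 12 genes listed under wall proteins and mannoproteins 6 fell and 2 rose in wild type, and 8 fell and 2 rose in the mutant. Not all of the 12 encode wall proteins, and a transcription factor gene among them fell in both strains. The wall protein genes with the deepest falls in wild type were adg2 (-2.52 ± 0.20) and adg1 (-2.32 ± 0.16), and in the mutant adg1 (-2.55 ± 0.16) and adg2 (-2.37 ± 0.20). Of 18 genes listed under cell integrity signalling 6 rose and 8 fell in wild type and 6 rose and 7 fell in the mutant. The list also holds sty1, a stress kinase gene, so not all of it is the pathway that answers wall damage. The median of these 18 was -0.02 in wild type and 0.04 in the mutant, with the stress factor gene atf1 at 2.10 ± 0.07 and 1.33 ± 0.07 and the GTPase gene rho5 at -1.38 ± 0.22 and -1.61 ± 0.22.

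Of 18 septation and division genes 9 fell and 5 rose in wild type, where 34.6% of all tested genes fell and 37.7% rose. In the mutant 9 fell and 6 rose, where 32.5% of all tested genes fell and 35.7% rose. The median log2 fold change of the 18 was -0.17 in wild type and -0.31 in the mutant. The gene slp1, an activator of mitotic exit, was among those that fell, at -3.45 ± 0.13 in wild type and -2.98 ± 0.13 in the mutant. The largest rises were those of sep1 (1.09 ± 0.09) and fim1 (0.98 ± 0.07) in wild type. The summed level of the 18 genes ranged from 33790.0 to 35706.3 in untreated wild type, 34012.2 to 35426.3 after H2O2, 34149.5 to 35680.8 in the untreated mutant and 33735.9 to 34096.1 in the treated mutant, and none was at 0. The sum is weighted to abundant genes, and in it rises and falls offset each other. In wild type fim1 went from 6093.3 and 6548.2 to 11959.1 and 12945.2. Over the same treatment cdc15 went from 1904.2 and 2022.0 to 435.9 and 343.5, and slp1 from 1995.2 and 2214.3 to 181.5 and 201.2. Of 11 mating and sporulation genes 7 fell and 1 rose in wild type and 8 fell and 1 rose in the mutant. Their summed level ranged from 2605.4 to 2609.1 and from 2364.5 to 2484.3 in untreated and treated wild type, and from 3261.7 to 3414.2 and from 2371.4 to 2458.8 in the untreated and treated mutant, and none was at 0. The part of the cell cycle state in the falls of the wall genes was not tested, and in these bulk samples fewer dividing cells and less transcript per dividing cell cannot be told apart.

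Over the 8 libraries, genes outside the 8 were ranked by how alike their profiles were to those of the wall genes. The measure was Pearson's r of log2(value + 1) among the 4948 other genes with a mean of at least 20, as a description. The points share their libraries and fall into treated and untreated groups. Because the 8 were left out, a closer profile within the 8, such as bgs4 for cts2 (r = 0.998), is not listed. The closest to gas1 were cdc15, a scaffold of the cytokinetic ring (r = 0.9975), and eng1 (r = 0.9974). For cts2 they were adg2 (r = 0.9990) and cif1 (r = 0.9972), and for exg1 spc25 (r = 0.9971), of uncertain value, and adg2 (r = 0.9952). The profile of bgs4 was closest to cdc15 (r = 0.9986) and the adenine deaminase gene dea2 (r = 0.9984). For psu1 they were the B-type cyclin gene cig1 (r = 0.9976) and asl1, annotated as an O-glucosyl hydrolase (r = 0.9962). The closest to bgs1 were SPBC14C8.11c (r = 0.9954), of uncertain value, and chp2 (r = 0.9947), and to ags1 ted1 (r = 0.9936) and chl1 (r = 0.9921), the latter of uncertain value. The profile of bgl2 stood apart, with r between 0.319 and 0.507 to the other 7 genes, which had r between 0.927 and 0.998 among themselves. The closest to bgl2 were fah2, a fatty-acid amide hydrolase gene (r = 0.9869), which was at 1.34 in the untreated and 1.49 in the treated mutant against wild type, and xlf1 (r = 0.9826).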

How the data were processed

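The authors deposited DESeq2-normalized counts per gene, a signal made by dividing read counts by 1 size factor per library. The submitters' processing notes name build ASM294v2 and the tools FastQC, Trimmomatic, Salmon and DESeq2, with no version or strand setting. The table holds 5165 genes and 1 line without a gene name, not used. In each library at least 99.98% of values were whole multiples of 1 read, within 0.05 reads. Names, lengths and overlaps came from the reference annotation of ASM294v3; since its build differs from the authors', coordinates and sequences are not printed; 5131 identifiers matched and 34 did not.

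A gene was tested if 2 or more libraries reached a value of 10 (5028 genes, with 137 left out), using limma 3.58.1 in R 4.3.3 on log2(value + 1) with a trended prior variance, 1 mean per group, two-sided tests and Benjamini-Hochberg adjustment. The fit was tested on simulated counts. Uncertain genes are those that share 5% or more of their 31-base stretches with another gene, or have over 50% of their exons opposite a coding gene. Stretches were compared on either strand, so exons opposite another gene also count as shared. The members and 9 lists (97 entries, 94 matched) were chosen with earlier results of these data known. Named genes were the 8, any gene of the first 5 lists, and the 2 highest and 2 lowest called genes of the other lists. The 2 genes outside the 8 that were most like each of the 8 were named too. Alternatives were other pseudocounts, filters and scalings, edgeR 4.0.16 and DESeq2 1.42.0 on recovered reads, smaller fits, a replicate block and leaving out each library. One gene named by this rule is not reported here.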

Additional observations from a re-analysis of the deposited data

Results flagged for a closer look

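None of the 8 genes passed the test of the difference between the strains' H2O2 responses, while 22 of the other genes named did (limma, Benjamini-Hochberg adjusted p below 0.05). Of all tested genes 27.3% passed. Some of the named genes were chosen from those called in these same data, so the 22 are a list of cases and not a share to compare. Each value here is the log2 H2O2 response of the mutant minus that of wild type. Among relatives of the 8 genes the difference was 0.44 for bgs2, 0.82 for mok11, -1.38 for gas2, -0.66 for exg2, -1.09 for exg3, -0.39 for eng2 and 0.83 for agn2. In the list of chitin synthesis and precursors it was -0.82 for cfh2, -0.26 for cfr1 and -0.78 for fyu1, and in that of wall proteins 0.99 for meu10, -0.57 for pvg1 and 0.29 for mtl2. In the list of cell integrity signalling the values were -0.66 for cwg2, -0.77 for atf1, 0.63 for sty1 and 0.28 for rho1. Division genes gave -0.59 for sep1, 0.65 for spn2 and 0.46 for plo1, and ste11, the regulator of mating, gave 1.25. The gene SPAC26H5.09c, beside bgl2, gave -0.64. The values of mok11, gas2, cfr1, fyu1, cwg2 and spn2 are uncertain because another gene holds at least 5% of their 31-base stretches, on either strand. For gas2 and cwg2, 85.1% and 88.8% of the exons lie opposite another coding gene. Other settings lost some of these calls, with adjusted p above 0.05: cfr1 by edgeR, DESeq2 and quantile normalization, rho1 by edgeR and DESeq2, mtl2 by DESeq2 and quantile normalization, cwg2 by quantile normalization and plo1 by DESeq2. Those 5 and bgs2, eng2, exg2, meu10 and ste11 also lost the call without at least 1 of the libraries, so that 11 of the 21 genes recomputed kept it under all 17 alternatives. The gene SPAC26H5.09c is not among these 21, and its lost calls were not counted. The groups have 2 libraries each, too few for a check of single samples that stand apart.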

How the results depend on the processing

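The 8 genes fell with H2O2 in both strains under all 18 alternatives, and bgl2 was higher in the mutant under all 18 in both conditions. Members called went from 1 to 2 after H2O2 between the strains without either treated wild-type library, where the range over left-out libraries was 1 to 2. In the difference of responses they went from 0 to 1 under quantile normalization, with a range of 0 to 1 over left-out libraries. All genes called in the difference ranged from 776 to 1400 over left-out libraries (1372 with all), and in the treated mutant against treated wild type from 1628 to 2488 (2462 with all). Under quantile normalization gas2 and rho1 in the treated mutant changed sign, to -0.07 and -0.09. The labels give no pairing of the replicate numbers. The deviations of same-numbered libraries correlated at 0.339 between the wild-type groups, 0.162 between the mutant groups, 0.367 between the untreated groups and -0.017 between the treated groups, and at -0.008 and -0.143 for the other 2 pairs of groups, and a replicate block called 8, 8, 1, 1 and 0 members, as without it, and 1684 genes in the difference. In a fit that leaves out a library, the lone library of a group is assumed to vary like the others. On the recovered reads edgeR called 3649 genes with H2O2 in wild type and 3443 in the mutant, where limma on the deposited values called 3635 and 3427. Normalized counts show relative levels only, and the falls could not be set against a measure of RNA per cell.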

Other observations

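The coding genes on either side of the 8 genes in the reference gene table gave 14 tested neighbours, looked up after the values were seen. With H2O2 in wild type 6 of them fell and 4 rose, where 34.6% of all tested genes fell and 37.7% rose. The neighbour of gas1 is the beta-glucan synthase gene bgs3, which was at -1.21 in wild type and -0.84 in the mutant. Beside bgs1 lies SPBC19G7.04, annotated as a DNA-protein cross-link repair protein, at -2.59 and -2.30. Beside bgl2 lies SPAC26H5.09c, an oxidoreductase gene of the Gfo/Idh/MocA family, which like bgl2 was higher in the untreated mutant (1.44 ± 0.07; limma, adjusted p = 1.1e-06) but rose with H2O2, by 2.30 in wild type and 1.66 in the mutant, where bgl2 fell.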
